A study of Homo sapiens with 2 samples.

Results

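The centromere, kinetochore and spindle checkpoint genes studied here are 46 genes listed by name for their role in the kinetochore, and assigned to probes through RefSeq accessions. A probe could be named for 45 of them, and CENPM was not analysed here. The 45 genes are among 21743 genes named on the array, of which 16052 gave a ratio. The cells were MRC-5, a fibroblast line derived from human fetal lung, and both groups were this same line. The control group was 1 culture given control siRNA and the knockdown group 1 culture given periostin siRNA, at a dose of 10 nM and for 48 h in each. Each RNA was hybridized to 1 single-colour Agilent array. Since neither condition has a replicate, the values below describe these arrays, without a test and without p-values. The study asked which genes of lung fibroblasts depend on periostin, a secreted protein of the extracellular matrix.

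The centromere is the stretch of each chromosome on which the kinetochore is built, and it is marked by nucleosomes that carry CENPA in place of histone H3. A constitutive layer of proteins stays on this chromatin through the cell cycle. In mitosis it carries the outer kinetochore, which grips the ends of spindle microtubules. Kinetochores without microtubules switch on the spindle checkpoint, which holds back the separation of the chromosomes until all of them are attached. Many of these genes are known to be transcribed mainly in G2 and M.

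POSTN, the target of the siRNA, had a signal of 2639 with control siRNA and 280 with periostin siRNA, 9.43-fold lower. Signals here are background-subtracted spot intensities, scaled so that the 75th percentile of either array is 377. Levels are compared between the arrays and not between genes, except where the marker sums below add signals of different probes. A spot was called well above background by the flag of the scanner software, which was set for 58.0% of the spots with control siRNA and 58.9% with periostin siRNA. All 9 markers of fibroblasts examined, collagens and VIM among them, were well above background on both arrays, with a summed signal of 368630 with control siRNA and 325607 with periostin siRNA. VIM gave the largest part of the sums, 189285 and 174042. The marker with the lowest ratio was PDGFRA, from 17399 to 9321, and the highest was LUM, from 1961 to 3481. Of the markers of other cells, 2 of 4 epithelial, 2 of 3 endothelial, 2 of 4 immune and 1 of 2 smooth muscle genes were well above background with control siRNA, and 3 of 4 immune genes with periostin siRNA. Their summed signals were 72.1 and 195 for epithelium, 124 and 128 for endothelium, 1667 and 1977 for immune cells and 277 and 321 for smooth muscle, control siRNA first. The immune sum came mostly from CD79A, at 1640 and 1934, and the smooth muscle sum mostly from DES, at 274 and 313. CDH1, KRT5, PECAM1, LAPTM5 and MYH11 were not well above background on either array, while EPCAM went from 34.6 to 135. The part of these cells in the results was not tested.

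With periostin siRNA, 22 of the 45 centromere and kinetochore genes were lower by more than 3-fold, the threshold of the study, against 2.75% of all genes measured. With the normexp background correction the count was 12, against 1.19% of all genes, and the genes that no longer passed were CENPA, CENPH, CENPK, CENPN, CENPW, NUF2, KNL1, SKA1, TTK and SGO1. None was higher by more than 3-fold, against 3.37% of all genes. The log2 ratio, periostin siRNA over control siRNA, was below 0 for 39 of the 45 genes, against 45.5% of all genes, and its median was -1.54, or -0.86 with normexp, against 0.06 over all genes. At 2-fold, 26 were lower, against 6.42% of all genes. Over genes flagged on both arrays, 16 of the 39 in the set were lower by more than 3-fold, against 2.39% of all of them. Among the 100 genes with the lowest ratios, out of 16052 measured, 14 belonged to this set of 45. Genes not well above background were counted at their bound, as 6 of these 14 were. The ranking was made with the processed signal alone. The set and its role groups were chosen with earlier results of these arrays known. The study had also reported cell cycle as the highest ranked term on them. The shares thus describe the set and do not test it. Fewer cells in G2 and M and less RNA per cell cannot be told apart in RNA from a whole culture.

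All 45 genes were well above background with control siRNA, and 39 were so with periostin siRNA. The other 6 were CENPA, NUF2, SPC25, SKA1, TTK and SGO1. Their signal with control siRNA was set against 7.77, the lowest flagged signal of the periostin siRNA array. The fall to this floor is called a bound and is written as at least that large. It holds for this floor and the processed signal alone. Single spots missed the flag at higher signals, as the other probe of CENPI did at 8.37. With normexp the falls of all 6 were smaller, with log2 ratios from -2.55 for SPC25 to -1.02 for SGO1. The medians count these genes at their bound. The spread of the values was wide, from SPC25, at least 41.4-fold lower, to PMF1, at a log2 ratio of 0.37. The fall was thus not shared by all parts of the kinetochore, and genes whose products sit in the same complex stood far apart in several cases.

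**Figure D1:**
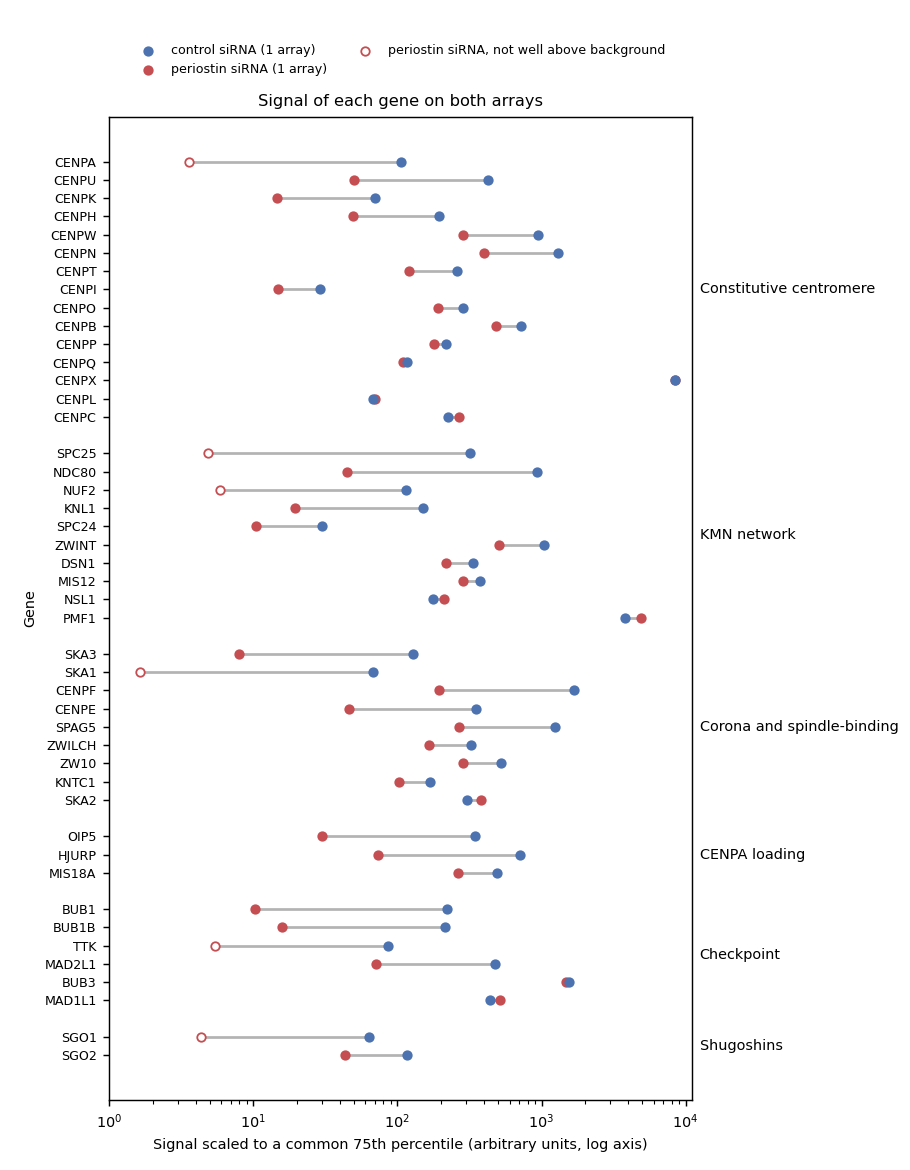
Signal of each of the 45 genes on the control siRNA array (blue) and the periostin siRNA array (red), on a log axis, grouped by role and sorted by ratio within each group. Open red circles are signals not well above background, and the long grey lines belong to genes with large falls, such as SPC25 from 321 to 4.87, while the circles of CENPX lie on each other at 8403 and 8384.

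The promoters of these genes were searched for motifs that are known from genes of the cell cycle. The CHR element, searched as TTTGAA or TTCGAA, is the site through which the MuvB complex, joined by B-MYB and FOXM1 in dividing cells, acts on genes of G2 and M. The CCAAT box, searched as CCAAT, is bound by NF-Y. Sites for E2F factors were searched as GCGGGAA or TTGGCGC. The search used both strands of the 300 bases from 250 before to 50 after each RefSeq start on GRCh38.p14, for 43 promoters of 38 of the genes. CENPH, CENPL, CENPM, KNL1, KNTC1, MIS18A, BUB3 and TTK were not searched.

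A CHR match was found for 16 of the 19 searched genes that were lower by more than 3-fold and for 4 of the 19 that were not. CENPH, KNL1 and TTK, also lower by more than 3-fold, were not searched. Counted as promoters, these were 84.2% and 20.8%, against 16.4% of all 35116 promoters of the table. The CCAAT box did not separate the genes in this way, with 63.2% of the promoters of the lower genes, 62.5% of the others and 34.6% of all promoters. E2F matches stood in 31.6%, 29.2% and 9.23%. The 20 genes with a CHR match had a median log2 ratio of -3.12, from -5.37 to 0.26, and the 18 without had -0.59, from -3.07 to 0.37. The median GC content of the windows was 61.3% for the lower genes and 62.0% for the others. Among the promoters of other genes lower by more than 3-fold on these arrays, 22.8% held a CHR match, against 12.5% of the promoters of all other measured genes. The split uses the 3-fold calls from the processed signal. With normexp, CENPA, CENPN, CENPW, NUF2, SKA1 and SGO1, each with a CHR match, no longer passed. CENPK, which has none, did not pass either. With these genes moved to the others, a larger share of the others holds a CHR match than given above. The shares in this paragraph are a description, and a match does not show that a factor binds there.

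The promoters of 6 genes with large falls and a CHR match show where it lies. They are printed from 100 bases before the start to base 30 after it, 5′ to 3′ on the strand of the gene, with matches to any of the motifs in capitals. On the other strand TTTGAA reads TTCAAA, and TTCGAA reads the same. There a match reads ATTGG for the CCAAT box and TTCCCGC or GCGCCAA for E2F.
SPC25 (chr2:168890401-168890530, minus strand): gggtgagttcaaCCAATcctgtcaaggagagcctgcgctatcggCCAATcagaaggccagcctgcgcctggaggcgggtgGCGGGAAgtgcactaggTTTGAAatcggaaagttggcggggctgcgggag
NDC80 (chr18:2571457-2571586, plus strand): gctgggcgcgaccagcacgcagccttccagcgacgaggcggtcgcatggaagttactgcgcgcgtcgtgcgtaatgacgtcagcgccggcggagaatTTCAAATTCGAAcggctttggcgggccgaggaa
SKA3 (chr13:21176523-21176652, minus strand): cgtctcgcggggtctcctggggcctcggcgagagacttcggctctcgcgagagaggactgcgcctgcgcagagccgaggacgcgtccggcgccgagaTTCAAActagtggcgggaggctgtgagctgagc
BUB1 (chr2:110678034-110678163, minus strand): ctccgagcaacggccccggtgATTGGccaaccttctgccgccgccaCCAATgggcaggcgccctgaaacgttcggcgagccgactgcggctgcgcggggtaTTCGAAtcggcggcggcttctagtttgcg
BUB1B (chr15:40160969-40161098, plus strand): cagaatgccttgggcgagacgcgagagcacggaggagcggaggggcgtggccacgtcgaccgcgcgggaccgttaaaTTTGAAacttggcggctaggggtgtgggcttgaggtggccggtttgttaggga
CENPA (chr2:26785956-26786085, plus strand): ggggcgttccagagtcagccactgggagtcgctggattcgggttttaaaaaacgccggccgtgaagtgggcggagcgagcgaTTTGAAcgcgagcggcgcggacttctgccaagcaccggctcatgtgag

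In SPC25, NDC80 and SKA3 a CHR match covers the start itself, from base -3 to base 3, NDC80 holds another right behind it, and SPC25 another at -247 to -242, outside the stretch shown. In BUB1 it runs from base 2 to base 7, downstream of a CCAAT box on each strand. BUB1B and CENPA carry it at -23 to -18 and at -18 to -13. Of the 23 CHR matches in all promoters of these genes, 19 began within 50 bases of the start, and 5 were TTCGAA. The windows of the 2 ZWINT starts overlap, and the same site, at -31 and at -17, is counted in both. Matches of different motifs overlapped in 2 places.

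The promoters of 3 genes without a CHR match in the window, from the same complexes or layers as those above, are printed in the same way. SKA2 belongs with SKA3, CENPX lies in the constitutive layer as does CENPA, and NSL1 belongs to the same network as SPC25 and NDC80.
SKA2 (chr17:59155157-59155286, minus strand): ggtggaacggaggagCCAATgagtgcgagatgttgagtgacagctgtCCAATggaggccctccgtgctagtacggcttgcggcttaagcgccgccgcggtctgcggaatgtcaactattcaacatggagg
CENPX (chr17:82022849-82022978, minus strand): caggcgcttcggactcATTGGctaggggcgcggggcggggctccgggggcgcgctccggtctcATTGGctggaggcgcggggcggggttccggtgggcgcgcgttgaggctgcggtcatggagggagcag
NSL1 (chr1:212791748-212791877, minus strand): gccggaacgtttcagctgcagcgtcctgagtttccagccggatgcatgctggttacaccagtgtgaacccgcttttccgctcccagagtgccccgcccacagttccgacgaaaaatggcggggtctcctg

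SKA2 and CENPX hold CCAAT boxes in the stretch shown and NSL1 holds none of the motifs in the whole window. The log2 ratios of these 3 genes were 0.34, -0.0034 and 0.26. The exceptions ran both ways. CENPU at -3.07, CENPE at -2.93 and CENPK at -2.26 were lower by more than 3-fold without a CHR match, and ZWINT, ZW10, CENPO and CENPC held a match with log2 ratios of -1.04, -0.89, -0.59 and 0.26.

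**Figure D2:**
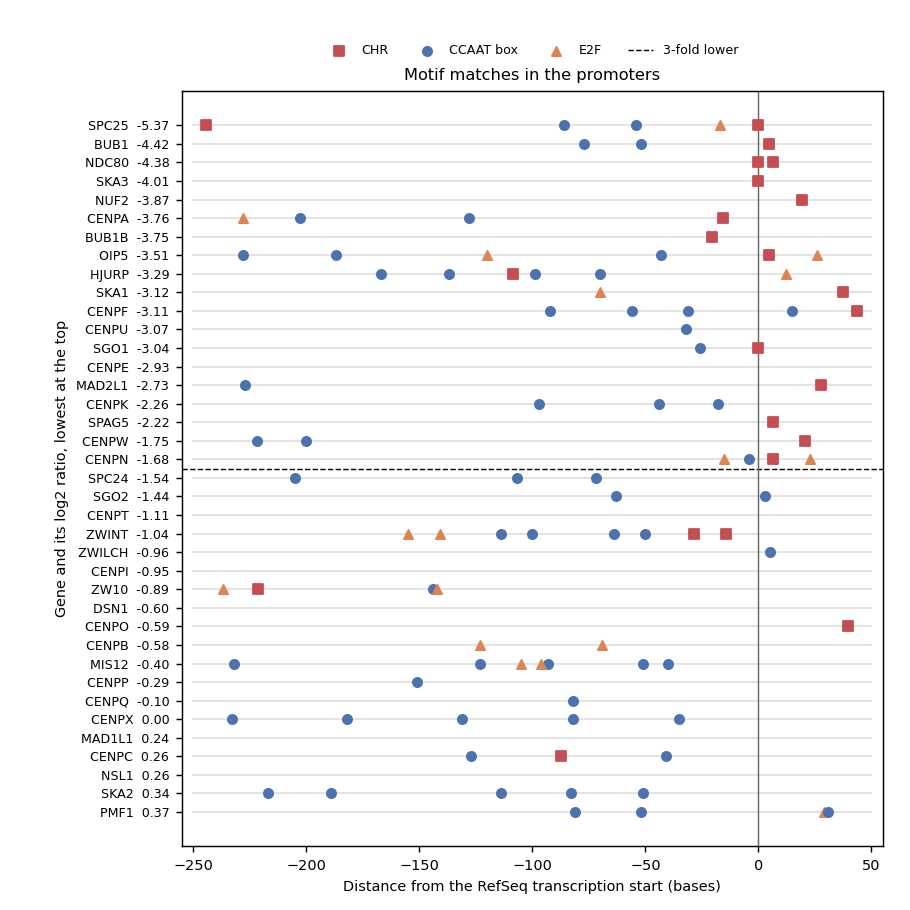
Matches to the CHR element (squares), the CCAAT box (circles) and the E2F motif (triangles) in the promoters of 38 genes, by distance in bases from the RefSeq start, with genes sorted by log2 ratio from the lowest at the top and several promoters of a gene drawn on its row. Above the dashed line lie 19 genes lower by more than 3-fold with the processed signal. Of these, 16 have a square, mostly near the start, against 4 of the 19 genes under the line.

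Of the role groups, the constitutive centromere proteins had the median closest to 0. Of the 15 genes measured, 6 were lower by more than 3-fold, which is 40% of them, and the median log2 ratio was -0.95. For the other 30 genes the count was 16, or 53.3%, and the median was -2.47. The difference of the medians, -1.53, was -0.50 with the normexp background correction and -0.67 over probes well above background on both arrays. Its size thus depended on the setting.

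CENPA, the histone variant that defines the centromere, went from a signal of 106 to 3.58, a signal that missed the background flag, which makes it at least 13.6-fold lower. CENPU, which helps to bring the kinase PLK1 to kinetochores, was next in the group, with a signal of 424 with control siRNA and 50.3 with periostin siRNA, 8.42-fold lower. The subunits that CENPU joins in the constitutive layer did not share this fall. CENPO had signals of 286 and 190, CENPP of 217 and 178, and CENPQ of 117 and 109, with log2 ratios of -0.59, -0.29 and -0.10 ± 0.081 (SD over 10 spots).

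CENPK and CENPH, which lie in a complex with CENPI, had log2 ratios of -2.26 and -1.98 ± 0.13 (SD over 10 spots). CENPH went from 195 to 49.5 and CENPK from 69.8 to 14.6. CENPI was dim, at 28.8 and 14.9, and its log2 ratio was -0.95 by the probe used. Its other probe gave -1.68, from a signal of 8.37 with periostin siRNA that missed the background flag.

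CENPN, which recognises the CENPA nucleosome, went from 1292 to 402 and was 3.21-fold lower by its brightest probe. Its other probes gave log2 ratios of -0.95 and -0.031 against -1.68, the widest disagreement among the genes with several probes, and the mean over its probes was -0.89, short of 3-fold. Its partner CENPL had signals of 67.5 and 69.6, a log2 ratio of 0.046 that was below 0 with median scaling, quantile normalization, loess and normexp.

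Of the histone-fold proteins, CENPW went from 951 to 283 and was 3.36-fold lower. Its direct partner CENPT had signals of 260 and 120, 2.16-fold lower. CENPX had signals of 8403 and 8384, and its log2 ratio of -0.0034 was within the propagated spot error of 0.20 and above 0 without scaling and with quantile normalization. CENPC, which ties CENPA chromatin to the outer kinetochore, had signals of 223 and 266 and a log2 ratio of 0.26. CENPB, which binds a short sequence in centromeric satellite DNA, had 723 and 482, a log2 ratio of -0.58.

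**Figure D3:**
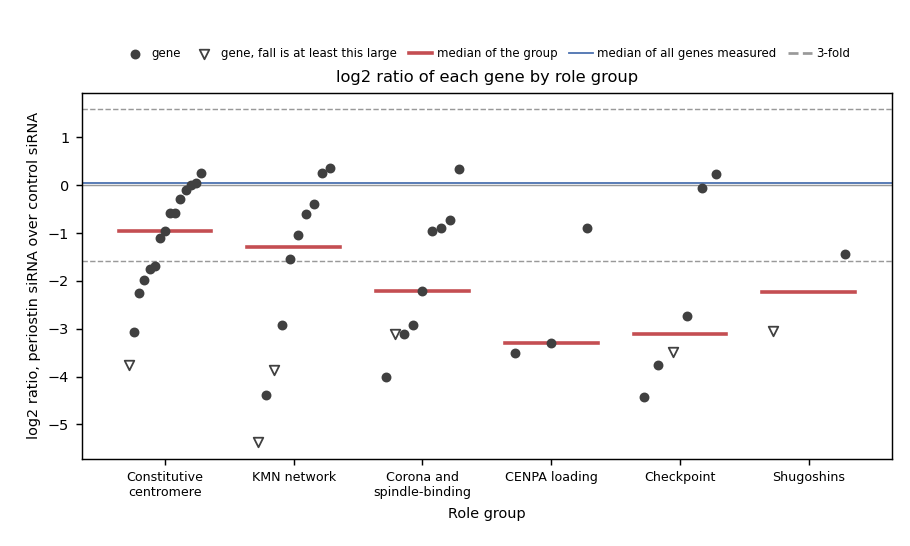
log2 ratio (periostin siRNA over control siRNA) for each gene by role group, with triangles for genes counted at their bound, red lines at the group medians, the blue line at the median of all genes (0.06) and dashed lines at 3-fold. The medians run from -0.95 for the constitutive centromere proteins to -3.29 for the CENPA loading factors, and every group but the loading factors and shugoshins has genes near or above 0.

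The KMN network is the core of the outer kinetochore and joins the NDC80 complex, which holds the microtubule, the MIS12 complex, which anchors it on the centromere, and KNL1. Of its 10 genes, 4 were lower by more than 3-fold, and the complexes differed. The NDC80 complex had a median log2 ratio of -4.13, and all 4 of its subunits were lower by more than 2-fold. SPC25 went from 321 to 4.87, a signal that missed the background flag, which makes it at least 41.4-fold lower. NDC80 itself went from 928 to 44.4, 20.9-fold lower, and was well above background on both arrays. NUF2, its coiled-coil partner, went from 114 to 5.87, a signal that missed the background flag, which makes it at least 14.7-fold lower. SPC24 was dim, with signals of 30.2 and 10.4, and at 2.91-fold lower it stayed short of the threshold. It passed 3-fold with median scaling and quantile normalization, at a log2 ratio of -1.67 in each, and with loess, at -1.61. With normexp its log2 ratio was -0.41, short of 2-fold.

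The MIS12 complex had a median log2 ratio of -0.072, and none of its 4 subunits was lower by more than 2-fold. DSN1 had signals of 333 and 219, MIS12 of 377 and 286, NSL1 of 177 and 212 and PMF1 of 3789 and 4884. Their log2 ratios of -0.60, -0.40, 0.26 and 0.37 carried propagated spot errors of 0.20 each. The other probe of PMF1 gave 0.44. The ratios of NDC80, NUF2 and SPC25 were below those of all 4 MIS12 complex subunits with the processed signal and with normexp. That of SPC24 was below them with the processed signal, but with normexp, at -0.41, it lay above DSN1 at -0.51. None of these differences has a replicate.

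KNL1, the platform on which the checkpoint proteins BUB1 and BUB3 assemble, went from 150 to 19.6, a log2 ratio of -2.93 ± 0.20 (SD over 10 spots). The other probe of KNL1 was not well above background on either array. ZWINT, which binds KNL1, went from 1036 to 504, a log2 ratio of -1.04, and its other probe gave -1.21.

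Of the 9 genes of the corona and of spindle binding, 5 were lower by more than 3-fold, with a median of -2.22. CENPF, a large coiled-coil protein of the corona, went from 1684 to 195 and was 8.63-fold lower, and its other, dimmer probe gave a bound of -2.59 on the log2 scale against -3.11. CENPE, the kinesin that carries chromosomes towards the spindle equator, went from 353 to 46.4, a log2 ratio of -2.93 ± 0.14 (SD over 10 spots, 1 of them with an outlier flag). Its spots ranged from -3.16 to -2.74. SPAG5, also called astrin, which stabilises attachments, went from 1240 to 267 and was 4.65-fold lower.

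The SKA complex, which helps the NDC80 complex to follow shrinking microtubules, was split. SKA3 went from 128 to 7.97 and was 16.1-fold lower, with a propagated spot error of 0.35 on the log2 scale. The signal of 7.97 lay just above 7.77, the lowest flagged signal of the periostin siRNA array. SKA1 went from 67.7 to 1.63, a signal that missed the background flag, which makes it at least 8.71-fold lower. SKA2 had signals of 302 and 382, a log2 ratio of 0.34, and its other probe gave 0.48.

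ZW10, ZWILCH and KNTC1 form the complex that brings dynein and the MAD1L1 and MAD2L1 proteins to kinetochores. Their log2 ratios lay close together at -0.89, -0.96 and -0.73 ± 0.093 (the last an SD over 10 spots), with a propagated spot error of 0.20 for each of the others, so the 3 subunits cannot be ranked. None of them was lower by 2-fold, with signals of 526 and 284 for ZW10, 324 and 166 for ZWILCH and 169 and 102 for KNTC1.

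The factors that load CENPA onto centromeres had the lowest group median, -3.29, over 3 genes. HJURP, the chaperone of CENPA, went from 714 to 73.0 and was 9.77-fold lower. OIP5, a subunit of the MIS18 complex that prepares centromeres for loading, went from 344 to 30.1 and was 11.4-fold lower. MIS18A, its partner in that complex, had signals of 494 and 265 and was 1.87-fold lower.

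The spindle checkpoint genes had a median of -3.11 and fell into separate sets, with 4 of 6 lower by more than 3-fold and the others near 0. BUB1, a kinase that marks centromeric chromatin, went from 220 to 10.2 and was 21.5-fold lower. BUB1B, which inhibits the APC/C as part of the checkpoint complex, went from 213 to 15.8 and was 13.5-fold lower. TTK, the kinase that starts checkpoint signalling, went from 86.7 to 5.44, a signal that missed the background flag, which makes it at least 11.2-fold lower.

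MAD2L1, the protein that changes shape to bind CDC20, went from 474 to 71.5 and was 6.64-fold lower. MAD1L1, the partner on which MAD2L1 is converted, had signals of 437 and 517, a log2 ratio of 0.24, and 0.16 by its other probe. BUB3, the partner of BUB1 and BUB1B, had signals of 1540 and 1483, a log2 ratio of -0.054, above 0 with normexp, and its other probe gave -0.56.

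Shugoshins protect the cohesion of sister centromeres. SGO1 went from 63.9 to 4.31, a signal that missed the background flag, which makes it at least 8.22-fold lower. Its other probe was not well above background on either array. SGO2 had signals of 117 and 43.1 and was 2.71-fold lower, short of the threshold.

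**Figure D4:**
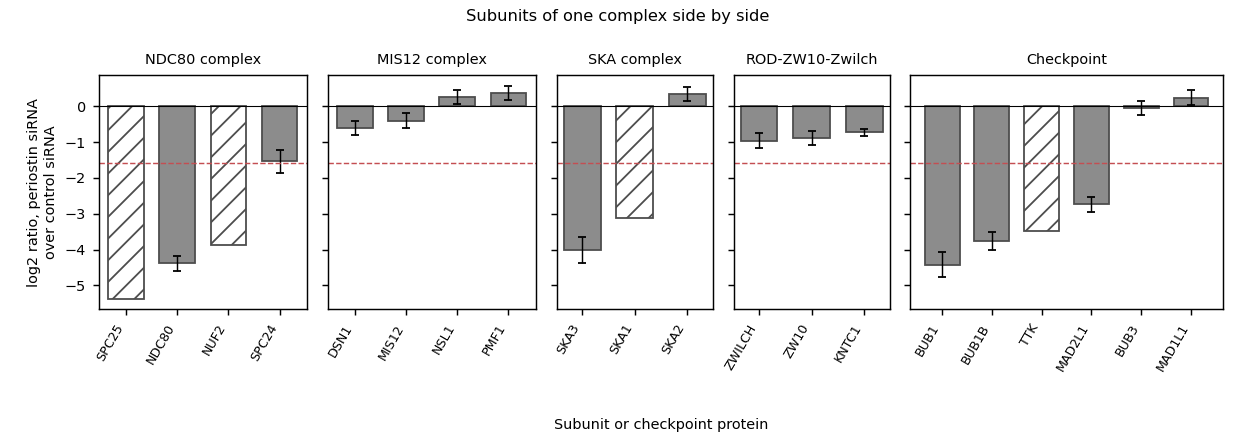
log2 ratio (periostin siRNA over control siRNA) for the subunits of 4 kinetochore complexes and for the checkpoint proteins, with error bars of the SD over 10 spots (KNTC1) or the propagated error of the spot (the others), hatched bars for genes counted at their bound, and a dashed line at 3-fold. The bars of the NDC80 complex run from -5.37 to -1.54 and those of the MIS12 complex from -0.60 to 0.37, while the SKA complex and the checkpoint proteins hold both kinds.

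Another 16 genes of the same pathway, not in the set, were examined beside them. Of these, 2 were lower by more than 3-fold, 12 had a log2 ratio below 0, and the median was -0.42. CDC20, the activator of the APC/C that the checkpoint holds, had the lowest value, -3.93, from a signal of 485 to 31.8. TRIP13, the only other one past 3-fold and named for that reason, is the ATPase that takes the checkpoint complex apart. It went from 987 to 196 and was 5.02-fold lower. NDE1, a dynein regulator, had the highest value, 0.34.

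Precision rested on the spots. The probe used was printed 10 times for 5 genes and once for 40. Spots of the same probe differed in log2 ratio with an SD of 0.15, pooled over 688 such probes that passed background on each array. For the dimmest 137 of them it was 0.31, and for the brightest 137 it was 0.051. Of the 12 genes with more than 1 probe, the widest gaps between probes on the log2 scale were 1.65 for CENPN, 0.73 for CENPI and 0.50 for BUB3. For CENPI the other probe missed the background flag with periostin siRNA. The other probe of CENPF gave only a bound, so no gap can be given for it. None of these errors covers the difference between cultures.

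Of the alternative settings, normexp moved the count of genes past 3-fold most. It changed the signal used, the correction and the offset together, and which of these moved the values was not tested. With the normexp correction, in which every spot of either array is raised by an offset of 50, 12 of the 22 genes were still lower by more than 3-fold, against 1.19% of all genes. The 12 were CENPU, NDC80, SPC25, CENPE, CENPF, SPAG5, SKA3, HJURP, OIP5, BUB1, BUB1B and MAD2L1, and they passed 3-fold under every other setting that gave them a ratio as well. The log2 ratio of SKA3 was then -1.67, of SPC25 -2.55, of CENPF -2.76 and of NDC80 -3.30.

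**Figure D5:**
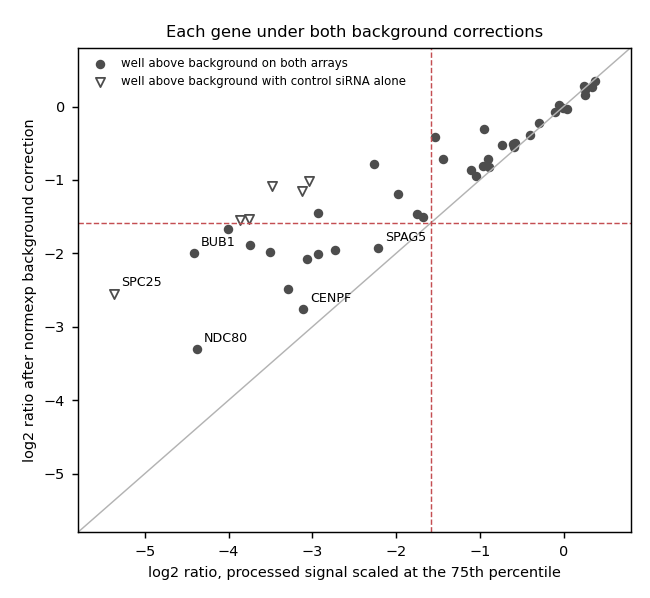
log2 ratio of each gene after the normexp correction (vertical axis) against that from the processed signal (horizontal axis). Triangles are genes not well above background with periostin siRNA, dashed lines mark 3-fold and a grey line marks equality. Genes with large falls to dim signals lie far above the line, as SPC25 at -5.37 and -2.55, whereas CENPF at -3.11 and -2.76 and the genes near 0 lie close to it.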

How the data were processed

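RNA of 1 MRC-5 culture per siRNA was measured on 1 single-colour Agilent array each. The authors deposited the scanner intensity of each spot, background-subtracted and detrended by Feature Extraction (11.5.1.1 per the file headers, 12.0.3.1 in the submitters' processing notes), and a normalized intensity table whose method is not given in the sources used here. Each array has 58717 non-control spots and no saturated spot. Values were put on the log2 scale and centred on the 75th percentile of their array (372 and 383 before scaling). Spots of a probe were averaged, and the brightest probe stood for a gene. A probe counted as well above background unless most of its spots lacked the flag. The RefSeq table of GRCh38.p14 named 65.1% of the spots.

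Python 3.11.15, numpy 2.4.6, pandas 2.3.3, scipy 1.17.1, R 4.3.3 and limma 3.58.1 were used. The gene set, its role groups and the lists were chosen with earlier results of these data known. Every gene of the set is named, and other lists by counts and extremes. The scaling and the mean ratios were tested on simulated data in which bright genes alone were shifted. The calls on dim spots and the rule for bounds were not tested there. Alternatives were normexp on the median spot signal, scalings (none, median, quantile, loess with a span of 0.3), the authors' table, the mean over probes, filters on dim and flagged spots, and thresholds of 2-fold and 4-fold.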

Additional observations from a re-analysis of the deposited data

How the results depend on the processing

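No paired analysis was possible because only 1 array was made per siRNA, which also leaves no replicate to omit. The number of arrays limits the precision of every value.

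The normexp correction and the restriction to probes well above background on both arrays moved the results most. The first changed the signal used, the correction and the offset together, and which of these moved the values was not tested. The second drops 6 genes with large falls. With normexp, 12 genes were lower by more than 3-fold, against 22. The medians of the log2 ratio with normexp and with the restriction were -0.86 and -1.04 for all the genes, -0.55 and -0.77 for the constitutive centromere proteins, -0.73 and -0.82 for the KMN network, -1.15 and -1.59 for the corona and spindle-binding genes, -1.49 and -2.73 for the checkpoint genes and -0.86 and -1.44 for the shugoshins. For the CENPA loading factors normexp gave -1.98. Under the other settings no median moved by more than the SD between replicate spots, and the counts past 3-fold, with 0 higher genes, stayed within 1.5 times the main ones.

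Among single genes, signs turned for those near 0. CENPL was -0.032 with normexp, -0.083 with median scaling, -0.064 with quantile normalization and -0.034 with loess. CENPX was 0.040 without scaling and 0.033 with quantile normalization, and BUB3 was 0.015 with normexp. POSTN lay between -3.37 and -2.99.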
